A study of Ambystoma mexicanum with 2 samples.

Results

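The families described here are groups of small RNA sequences from the tail of the axolotl (Ambystoma mexicanum) that did not map to any microRNA of mirBase, a database of microRNAs of many species, but that the authors listed as partly resembling a known microRNA other than let-7 and other than the microRNAs of muscle (miR-1, miR-206, miR-133, miR-499 and miR-208). Of 7785 families of unmapped sequences, 1588 had a listed resemblance, 665 of them to let-7 or a muscle microRNA and 923 to others only. Of these 923, the 259 with at least 200 reads over both libraries are the members, and the other 664 held 25660 blastema reads and 13570 control reads together. Members were grouped by the first microRNA name listed, which gave 123 names and 112 microRNA numbers. The blastema library came from tails 3 days post injury, at a stage where a mound of undifferentiated cells covers the cut, and the control library from tails that had never regenerated. The labels state that tissue of 20 mature animals was pooled, without giving a strain or an age in years. Each condition was 1 library, so no difference between conditions has a replicate check, no test was made, and the intervals below cover counting error only. In these bulk samples fewer cells of a type and less RNA per cell cannot be told apart.

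The deposited counts summed to 9952885 reads in the blastema library and 12613931 in the control library, and the share of a family is its count over this total. Log2 ratios are blastema over control, with 0.5 read added to each count. All counts of unmapped sequences in both libraries were even, whereas 3065 known entries in the blastema and 2631 in the control had odd counts, so the 95% intervals of unmapped counts below were computed from counts divided by 2. Whether each unmapped read was counted 2 times was not tested, and the counts and percentages below are as deposited. Muscle microRNAs took 14.3% of all blastema reads and 67.4% of all control reads by mapping, a log2 ratio of -2.23, and the shares of all other RNAs move with that difference. Scaling by TMM, a trimmed mean that centres most RNAs on 0, subtracts 2.14 from every log2 ratio given here, and a total without the muscle microRNAs subtracts 1.39. Every log2 ratio between 0 and 2.14 is thus negative with TMM, and every one between 0 and 1.39 also without the muscle microRNAs. For the main values such turns are named beside them, while differences between families do not depend on them.

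MicroRNAs are RNAs of about the length sequenced here, cut from hairpin precursors, that guide a protein complex to messenger RNAs by pairing of their bases 2 to 8, the seed. The copies of a mature microRNA in a cell often differ at their ends, because the cutting enzymes shift by a base or because bases are trimmed or added afterwards. Such end variants can have more differences from a reference sequence than a mapper may allow. Base errors made in reverse transcription, amplification or sequencing give copies with inner substitutions.

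The first set shows families of microRNA numbers with at least 1000 mapped reads, most of them the leading family of their group. It does not stand for all members, since 113 belong to numbers with fewer mapped reads. The groups of miR-4429, miR-750, miR-7977 and miR-3168, also among the 10 largest, are described further below. Each line gives the most common sequence as the authors listed it, 5′ to 3′, with bases 2 to 8 of that sequence in capitals. These bases are called its seed below. They are not the seed of the named microRNA where the sequence starts at another base, and the starts were not compared. The microRNA in brackets is the first name listed. No mirBase sequence was at hand, so known microRNAs are given by name.
amex-miR-pn118 (miR-199a): aCAGTAGTctgcacattggttaa
amex-miR-pn990 (miR-199a): cAGTAGTCtgcacattggttaa
amex-miR-pn665 (miR-21): aTAGCTTAtcagactgatgttga
amex-miR-pn37 (miR-203): gAAATGTTtaggaccacttga
amex-miR-pn165 (miR-140): aCCACAGGgtagaaccacggaca
amex-miR-pn153 (miR-140): aCCACAGGgtagaaccacggaaa
amex-miR-pn563 (miR-142): aTAAAGTAgaaagcactgctaa
amex-miR-pn1606 (miR-456): cAGGCTGGttagatggttgtcaa
amex-miR-pn319 (miR-25): aGGCGGAGacatgagcaattgt
amex-miR-pn2873 (miR-30e): cTTTCAGTcggatgcttacagca
amex-miR-pn2358 (miR-223): cAGTTTGTcaaataccccaat
amex-miR-pn2129 (miR-205a): aTTCCCAGtgggatgaagctca
amex-miR-pn470 (miR-200a): aTACTGCCtggtaatgatgataa
The seed of amex-miR-pn118 was that of 13 members, and the seed of amex-miR-pn990, which starts 1 base later, was that of 2. The seed of amex-miR-pn665 was shared by 5 members, that of amex-miR-pn37 by 4, that of amex-miR-pn1606 by 7 and that of both miR-140 families by 10, the family itself included each time.

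Many other members were close copies of these leading sequences with inner base changes. The next set is shown because 2 kinds of change went with the library that held the reads in most copies. These were A-to-C changes only, and T-to-G changes without A-to-C. Copies with other changes, some of them also mostly in the control, are counted below and not printed. Among the miR-199 copies of these 2 kinds, 2 went the other way at this scaling and are not printed. The A-to-C copy amex-miR-pn663 had 472 blastema and 284 control reads, and the T-to-G copy amex-miR-pn1180 had 10 and 366. Capitals mark the bases unlike amex-miR-pn118, or unlike amex-miR-pn165 in the last pair.
amex-miR-pn855 (miR-199a): CcCgtagtctgcacCttggtta
amex-miR-pn2646 (miR-199a): CcCgtCgtctgcacattggtta
amex-miR-pn2562 (miR-199c): CcagtagtctgcCcCttggttCC
amex-miR-pn723 (miR-199c): CcagtagtctgcCcattggttT
amex-miR-pn667 (miR-199): acagGagGctgcacattggGta
amex-miR-pn679 (miR-199): acagGagGctgcaTattggGta
amex-miR-pn658 (miR-199): acagGagtctgAacattggGta
amex-miR-pn97 (miR-199c): acagGagGctgcacaGtggtt
amex-miR-pn2595 (miR-140): CccCcagggtCgaaccacgga
amex-miR-pn775 (miR-140): accacagggGagaacAaAggac
In amex-miR-pn855, amex-miR-pn2646, amex-miR-pn2562, amex-miR-pn723 and amex-miR-pn2595 the inner changes were A-to-C. In the other families of this set they were T-to-G or included T-to-G.

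Some members stood within a few edits of a family that the authors listed as resembling let-7 or a muscle microRNA, although their own listed names were others. The pairs below give the let-7 or muscle family first, in lower case, and then the members, with the bases unlike it in capitals.
amex-miR-pn4250 (let-7b): ggggtggtaggttgtgtgggg
amex-miR-pn4987 (miR-1331): ggggtggAaggttgtgtgggg
amex-miR-pn5312 (miR-1331): ggggtggAaggttgtgtgggT
amex-miR-pn1122 (miR-1a): gggatggaaagaagtatggat
amex-miR-pn3210 (miR7744-5p): gggatggaaagaTgtatggat
amex-miR-pn1479 (miR-1b): ggcatgtacagacgtatgtat
amex-miR-pn5172 (miR-787): ggcCtgtacagacgtatgtat
amex-miR-pn3167 (miR-1b): ggaatgtcccgaagtatgtat
amex-miR-pn5116 (miR9765-NA): ggCatgtcccgaagtCtgtat

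The last set holds abundant members whose names have few mapped reads or whose sequences end in CCA. The last 3 bases are in capitals where they are CCA, the ending that is added to every mature transfer RNA.
amex-miR-pn1005 (miR-4429): cctctgagccaagcttttgt
amex-miR-pn486 (miR-4429): atcctctgagccaagcttttgt
amex-miR-pn906 (miR-7977): cgattcccggccaatgcaCCA
amex-miR-pn484 (miR-2898): caatccccggcatctccaCCA
amex-miR-pn2925 (miR-9277): cgaatcctgccgactacgCCA

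The members took a larger share of the blastema library than of the control library. They held 424228 blastema reads, 4.26% of the library (Wilson 95% interval 4.24 to 4.28), against 157268 control reads, 1.25% (1.24 to 1.26). The log2 ratio of the sums was 1.77 (1.76 to 1.79), and it was -0.36 with TMM. The members were 21.4% of the blastema reads and 13.8% of the control reads of all 7785 families. Family size was uneven, with a lowest total of 200 reads, a median of 462 and a highest of 83734. Of the 259, 138 had fewer than 500 reads and 73 had 1000 or more.

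By family, 177 members differed by 2-fold or more toward the blastema (here called higher), 55 by 2-fold or more toward the control (lower), and 27 lay between. Over all 1785 families with at least 200 reads, 63.4% were higher and 29.7% lower by this rule, and the median log2 ratio of the members, 2.20, was close to that of all these families, 2.10. With TMM the split of the members was 73 higher (28.2%) against 86 lower (33.2%), beside 25.6% and 37.2% of all these families. Among the 365 known microRNA labels with at least 200 reads, 86.6% were higher and 4.11% lower, with a median of 2.26. The 351 families with as many reads that resemble let-7 or muscle microRNAs went the other way, with 45 higher, 255 lower and a median of -2.70. Of the 1175 such families with no listed resemblance, 910 were higher and 220 lower, with a median of 2.53.

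The 200-read limit used the total of both libraries, so a family could enter through 1 library alone. There were 55 members with at least 200 reads in both libraries, 117 with that many in the blastema only, 46 in the control only and 41 in neither. Of the 55, 38 were higher, 7 lower and 10 between, with a median of 1.43. The interval lay above 0 for 184 members and below 0 for 63, and it held 0 for 12. With reads in both libraries, the log2 ratios ran from -9.40 to 7.25. Just inside the limit, with 200 or 202 reads in all, amex-miR-pn3115 (miR-9270) had 164 blastema and 36 control reads, amex-miR-pn4843 (miR-6349) had 0 and 202, and amex-miR-pn621 (miR-199a) had 66 and 134. Just outside it, with 198 reads in all, amex-miR-pn1590 (miR-25) had 118 blastema and 80 control reads, amex-miR-pn1639 (miR-135) had 112 and 86, and amex-miR-pn3751 (miR-203) had 94 and 104.

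**Figure D1:**
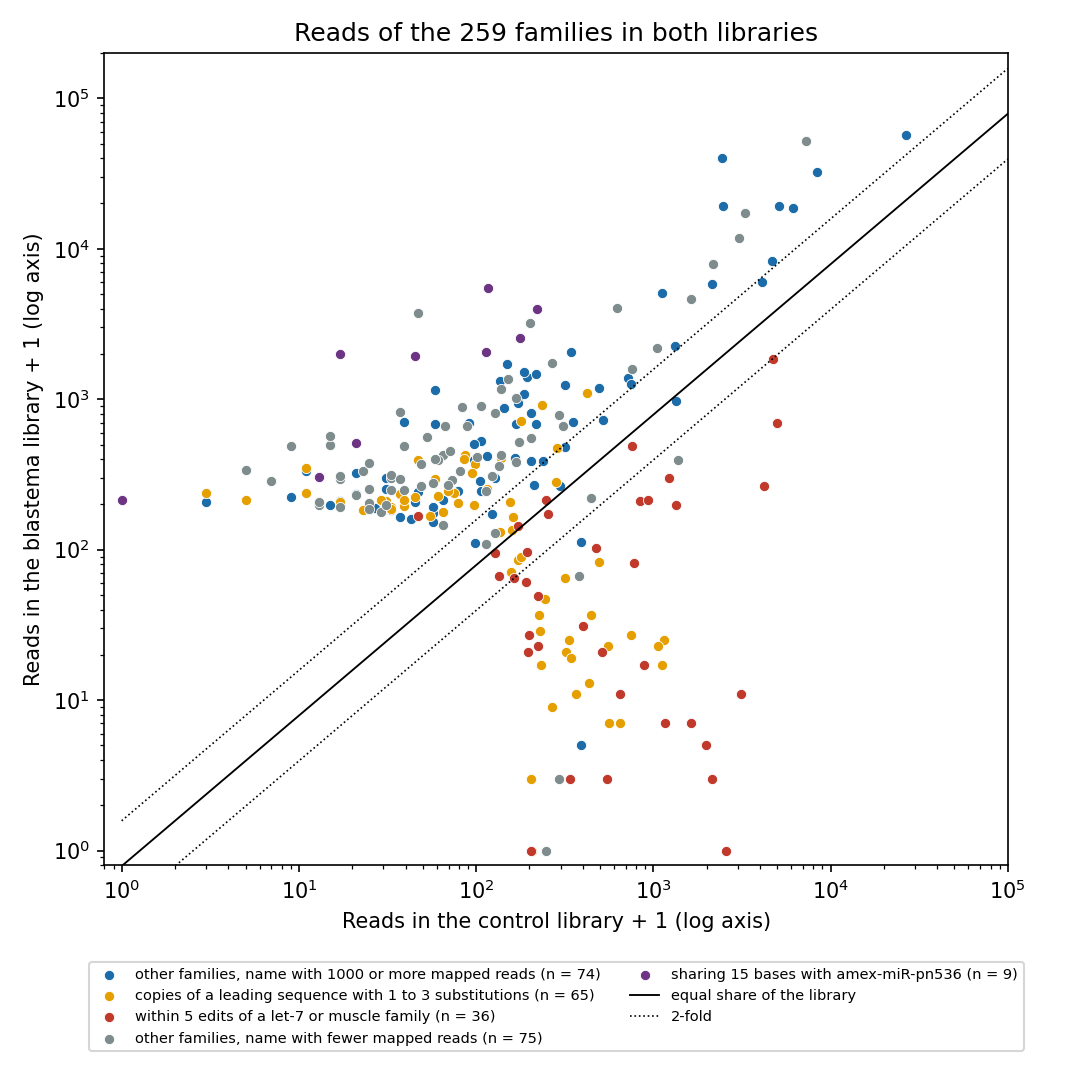
Reads of each of the 259 members in the blastema library (vertical, log axis, 1 added) and in the control library (horizontal, log axis, 1 added), coloured by kind of family. A substituted copy that is also close to a let-7 or muscle family is coloured and counted as the latter. The solid line marks an equal share of both libraries and the dotted lines a 2-fold difference. The 177 members above the upper dotted line include 35 of the 65 substituted copies, and the 55 below the lower one include 27 of the 36 families close to let-7 or muscle families.

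The reads were concentrated in few microRNA numbers, and the 10 largest groups held 74.8% of them. Families of 1 number are often variants of 1 sequence, so counts of families below are not counts of independent microRNAs. The group of miR-199, a microRNA of mesenchymal cells encoded within dynamin genes in vertebrates, was the largest, with 44 families. Its leading family amex-miR-pn118 had 57064 blastema reads, 0.573% of the library, against 26670 control reads, 0.211%. That was a log2 ratio of 1.44 (1.41 to 1.47), and it was -0.70 with TMM. The second largest miR-199 family, amex-miR-pn990, had 6036 blastema and 4094 control reads, a log2 ratio of 0.90 (0.82 to 0.98), below 0 under both scalings named above. The group as a whole had 72002 blastema and 44794 control reads and a log2 ratio of 1.03, which was -1.11 with TMM and -0.37 without the muscle microRNAs. Its families were divided, with 18 higher, 18 lower and log2 ratios from -6.29 to 4.35 among those with reads in both libraries.

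The families of miR-140, a microRNA of cartilage that lies within a ubiquitin ligase gene in vertebrates, were also divided. Of 14, 7 were higher and 4 lower, and their sum was 29192 blastema against 11718 control reads, a log2 ratio of 1.66 (1.61 to 1.70) that was -0.48 with TMM. The leading families amex-miR-pn165 and amex-miR-pn153, printed above, have the same seed and differ in the last bases. amex-miR-pn165 had 19260 blastema and 5102 control reads, a log2 ratio of 2.26 (2.20 to 2.32). amex-miR-pn153 had 8316 blastema and 4642 control reads, a log2 ratio of 1.18 (1.11 to 1.26) that was -0.95 with TMM and -0.21 without the muscle microRNAs. The intervals of these end variants did not overlap. With amex-miR-pn651 (miR-214, made from the same transcript as miR-199 in mammals), which had 300 blastema and 126 control reads, the mesenchyme, cartilage and matrix list counted 59 families. Of these, 26 were higher (44.1%) and 22 lower (37.3%), beside 63.4% and 29.7% of all families. Their median was 0.34, beside 2.10 over all families. All 22 lower families were copies of the leading miR-199 or miR-140 sequence with 1 to 3 inner substitutions, described below. The list is mainly variants of these microRNAs, so its counts and median do not stand for mesenchyme or cartilage microRNAs in general. The mapped reads of the 5 microRNA numbers of the list had a log2 ratio of 1.52, negative with TMM. With TMM 3 of the 59 were higher (5.08%) and 34 lower (57.6%), beside 25.6% and 37.2% of all families.

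miR-21, which is raised in wounds and inflamed tissue of mammals, led the injury list. All 15 of its families were at least 2-fold higher, beside 63.4% of all families. Their log2 ratios ran from 2.25 to 6.91, with a median of 4.12. With TMM 11 of the 15 stayed at least 2-fold higher (73.3%), beside 25.6% of all families. The leading family amex-miR-pn665 had 40368 blastema reads, 0.406%, against 2452 control reads, 0.0194%, a log2 ratio of 4.38 (4.30 to 4.47). The group summed to 44758 blastema and 2934 control reads, a log2 ratio of 4.27 (4.20 to 4.35). No member had miR-31, miR-221 or miR-222 among its listed names, the other microRNAs of that list.

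All 10 families of epithelial microRNAs were at least 2-fold higher, beside 63.4% of all families, with a median of 3.01. They include start or end variants of 1 miR-203 sequence and are not independent of one another. With TMM 4 of the 10 were higher and 0 lower, beside 25.6% of all families higher, and without the muscle microRNAs 7 were higher and 0 lower. miR-203, which promotes the exit of skin keratinocytes from the cell cycle in mice, had 6 of them with 35402 blastema and 8960 control reads, a log2 ratio of 2.32 (2.28 to 2.37) that was 0.19 with TMM and 0.93 without the muscle microRNAs. Its leading family amex-miR-pn37 had 32318 blastema and 8400 control reads, a log2 ratio of 2.29 (2.24 to 2.33). The other 4 were smaller. amex-miR-pn2129 and amex-miR-pn4327, which resemble miR-205 of stratified epithelia, had 1464 and 198 blastema reads against 218 and 16 control reads. amex-miR-pn470 and amex-miR-pn471, which resemble miR-200a and miR-429 of 1 epithelial family, had 1406 and 692 blastema reads against 192 and 90 control reads. The list summed to 39162 blastema and 9476 control reads, a log2 ratio of 2.39 (2.34 to 2.43) that was 0.25 with TMM and 0.99 without the muscle microRNAs.

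The leukocyte list had 5 families, all higher, and all 5 also with TMM, beside 63.4% of all families higher and 25.6% with TMM. miR-142 is made in blood cells, and its 4 families had 22670 blastema and 2858 control reads, a log2 ratio of 3.33 (3.25 to 3.41) with a narrow range from 3.29 to 3.88. Its leading family amex-miR-pn563 had 19158 blastema and 2478 control reads, a log2 ratio of 3.29 (3.21 to 3.38). amex-miR-pn2358 resembles miR-223, a microRNA of myeloid cells, and had 1708 blastema against 148 control reads, a log2 ratio of 3.87 (3.52 to 4.20). No member had miR-146, miR-150 or miR-155 among its listed names, and none had a microRNA of the blood and vessel or the smooth muscle lists.

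Families of microRNAs tied to proliferation numbered 14, with a median of 2.43. Of these, 11 were higher (78.6%) and 1 lower (7.14%), beside 63.4% and 29.7% of all families, and 86.6% of known labels were higher. With TMM 3 were higher (21.4%) and 3 lower (21.4%), beside 25.6% and 37.2% of all families. Without the muscle microRNAs 7 were higher (50%) and 2 lower (14.3%), beside 43.1% and 34.6%. The list as a whole had a log2 ratio of 2.28, which was 0.14 with TMM and 0.88 without the muscle microRNAs. The largest, amex-miR-pn319 (miR-25, which is encoded in a gene of the replication helicase in vertebrates), had 5094 blastema and 1114 control reads, a log2 ratio of 2.53 (2.40 to 2.67) that was 0.40 with TMM. Relatives of miR-15, which targets cyclins in human cells, were split. amex-miR-pn2487 (miR-15c) had 1144 blastema and 58 control reads, a log2 ratio of 4.63 (4.09 to 5.15), whereas amex-miR-pn149 (miR-15c) had 112 blastema and 390 control reads, a log2 ratio of -1.45. amex-miR-pn1024 (miR-106b), from the same gene as miR-25 in mammals, had 1084 blastema and 186 control reads.

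Only 2 members resembled a microRNA of the Hox clusters, both of them miR-196d. amex-miR-pn1714 had 240 blastema and 46 control reads, a log2 ratio of 2.71 (2.06 to 3.34), and amex-miR-pn1713 had 194 and 38, and neither was at least 2-fold higher with TMM. The neural list also had 2. amex-miR-pn76 (miR-9, of neural progenitors) had 526 blastema and 106 control reads, a log2 ratio of 2.65 (2.22 to 3.07), and amex-miR-pn367 (miR-124, of neurons) had 172 and 122, a log2 ratio of 0.84 that turns negative under both scalings. Of 12 families of broadly expressed microRNAs, 11 were higher (91.7%) and 1 lower (8.33%), beside 63.4% and 29.7% of all families, with a median of 2.19. With TMM 1 was higher (8.33%) and 2 lower (16.7%), beside 25.6% and 37.2% of all families. Among them the largest, amex-miR-pn2873 (miR-30e), had 1256 blastema and 750 control reads, a log2 ratio of 1.09 (0.90 to 1.27) that was -1.05 with TMM and -0.31 without the muscle microRNAs. The lists together held 119 members of 25 microRNA numbers.

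The unmapped families were then set beside the reads that did map to the same microRNA number. The mapped reads of a number were summed over its letters and over both arms of the hairpin. A family may come from 1 arm or letter, so both values need not be of the same molecule. Of the 112 numbers, 39 had at least 1000 mapped reads, and 146 members belonged to them. In 38 of these 39 groups the unmapped families and the mapped reads had log2 ratios of the same sign, and in 32 they differed by less than 1. Most known labels were higher at this scaling, as given above, so that equal signs were common to begin with. With TMM the signs were equal in 32 of the 39 groups, and without the muscle microRNAs in 30. Across the 39 groups the Pearson correlation of both log2 ratios was 0.60, a description only, since the points share both libraries and their depth. The median difference, unmapped minus mapped, was -0.31. The median share of unmapped members among the reads of a number was 7.01% in the blastema and 7.17% in the control. Each median was taken separately over the 39 groups, so both values are not of 1 group.

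miR-21 had a log2 ratio of 4.27 (4.20 to 4.35) in its families and 4.48 in its mapped reads, and miR-140 had 1.66 and 1.72. For miR-25 both values were close, at 2.26 and 2.26, and for miR-375, a microRNA of endocrine cells, they were 0.87 and 0.89, below 0 under both scalings. The families of miR-203 stood at 2.32 against 3.36 in its mapped reads, so that the unmapped members were 20.3% of its blastema reads and 34.3% of its control reads. The families of miR-24 stood at 1.48, below 0 with TMM, against 3.47. In the other direction the miR-103 family amex-miR-pn300 stood at 4.32 against 2.25, with 322 blastema and 20 control reads. The deposited counts of the miR-142 families exceeded those of the mapped microRNA, at 58.1% of the miR-142 reads in the blastema and 53.2% in the control. With unmapped counts divided by 2 they would be below the mapped counts in both libraries, and the miR-203 percentages would also be smaller. The only group of opposite sign was miR-4510, where amex-miR-pn4493 had 80 blastema and 780 control reads, a log2 ratio of -2.94, against 14800 and 3383 mapped reads, a log2 ratio of 2.47. The most common sequence of amex-miR-pn4493 was 2 edits from that of a let-7a family.

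**Figure D2:**
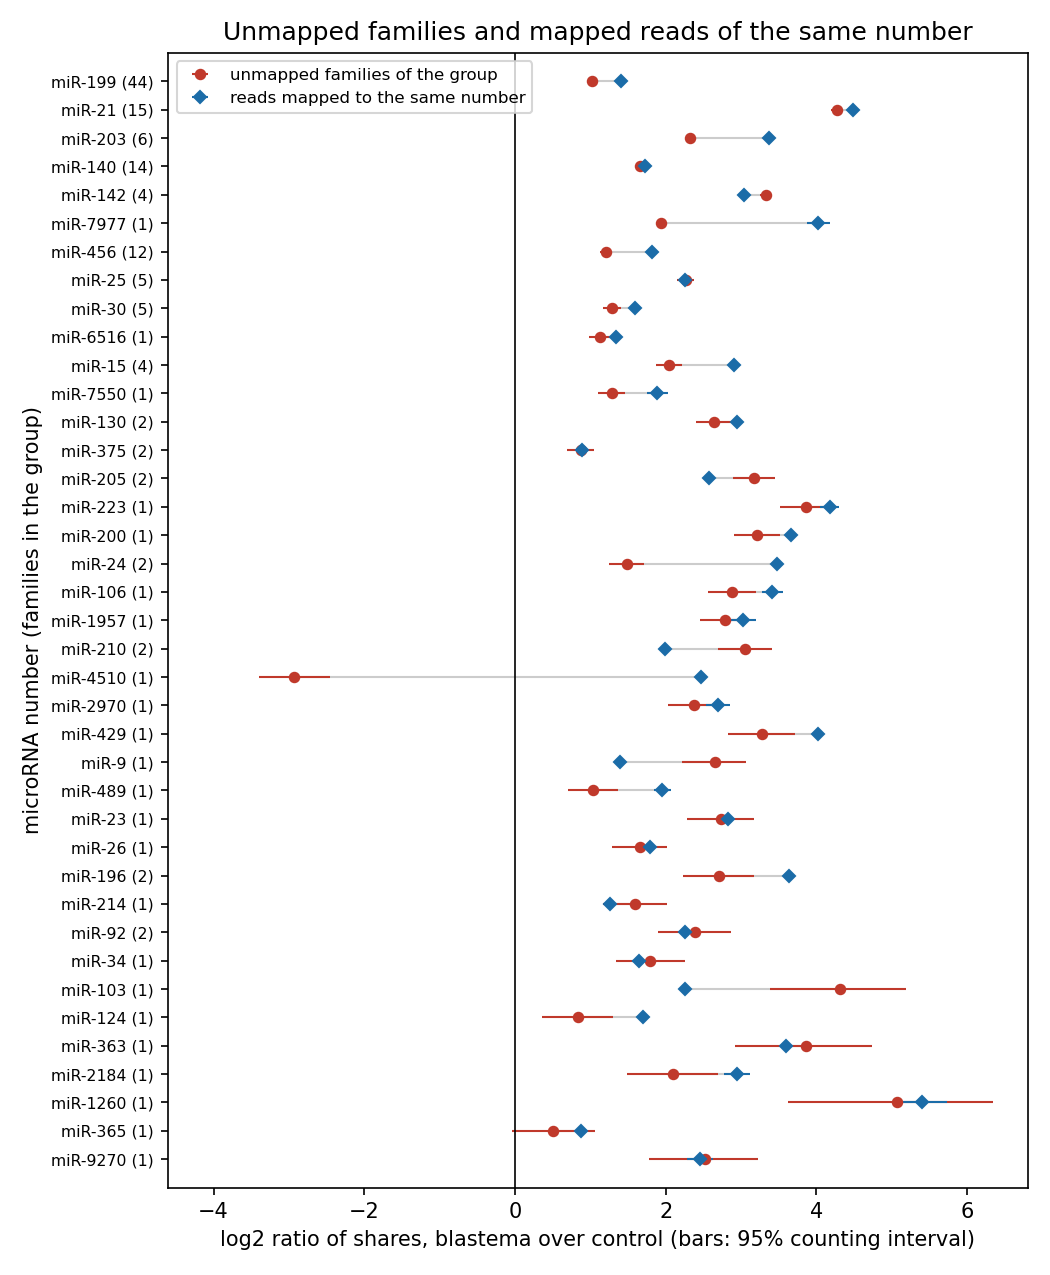
Log2 ratio of shares, blastema over control (horizontal), for the 39 microRNA numbers with at least 1000 mapped reads, each on a line with its number of families, the group with the most unmapped reads at the top. Red circles are the summed unmapped families with intervals from counts divided by 2. Blue diamonds are the mapped reads, summed over letters and arms of the number, with intervals from their counts. All groups but miR-4510 have both points right of 0, but under TMM every point between 0 and 2.14 would lie left of it.

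The 55 members at least 2-fold lower in the blastema were of 3 kinds. Of these, 27 had a most common sequence within 5 edits of that of a let-7 or muscle family, another 22 were copies of the leading sequence of their own group with 1 to 3 inner substitutions, and 6 were neither. The kinds overlap, and a family of both was counted with the first. Among all members, amex-miR-pn718, amex-miR-pn115 and amex-miR-pn621 lay 5 edits from a muscle family and were also miR-199 copies with 3 substitutions. The limit of 5 edits was chosen after the values were seen. Edits and substitutions describe the listed sequence, which can hold few of the reads. In amex-miR-pn1128 it had 2 of 6 blastema and 6 of 1628 control reads. In all, 36 members lay within 5 edits, 28 with a muscle family and 8 with a let-7 family as the nearest. Of the 36, 27 were lower, 1 was higher and 8 lay between, with a median of -2.53, and they summed to 5694 blastema and 38764 control reads, a log2 ratio of -2.43. Of the remaining 223 members, 176 were higher and 28 lower, with a median of 2.51. Of the 36, 27 carried a first name with fewer than 1000 mapped reads.

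The members with the most control reads among these were amex-miR-pn4987 and amex-miR-pn5312, both listed as miR-1331, and amex-miR-pn3210, listed as miR7744-5p. amex-miR-pn4987 had 694 blastema and 4996 control reads, a log2 ratio of -2.51 (-2.67 to -2.34), and differed from the let-7b family amex-miR-pn4250 in 1 base as printed above. amex-miR-pn5312 had 266 blastema and 4200 control reads, a log2 ratio of -3.64 (-3.89 to -3.38). amex-miR-pn3210 had 1850 blastema and 4726 control reads, a log2 ratio of -1.01 (-1.12 to -0.90), and differed in 1 base from the miR-1a family amex-miR-pn1122, which had 2974 blastema and 10532 control reads. The miR-1331 label itself had only 17 mapped reads in the blastema and 4 in the control.

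The smallest ratios among members with at least 1000 reads all belonged to families whose listed sequence was close to that of a miR-1 family. amex-miR-pn5116 (miR9765-NA) had 0 blastema and 2566 control reads, which is at least 675-fold lower by a floor of 3 reads and at least 337-fold lower with counts divided by 2. amex-miR-pn5172 and amex-miR-pn5159 (both miR-787) had 2 and 4 blastema reads against 2146 and 1972 control reads. amex-miR-pn5085 (miR-3893) had 10 against 3134 and amex-miR-pn1128 (miR482a-NA) had 6 against 1628. Except for amex-miR-pn1128, at least 98.6% of the reads of these families were A-to-C variants, defined below. Among all members, 4 had no blastema read and 1, amex-miR-pn5898 (miR-3168), had no control read but 212 blastema reads, at least 89.6-fold higher by the same floor.

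The base changes were next counted in the 9 groups with at least 4 families and at least 1000 mapped reads, which are miR-199, miR-21, miR-203, miR-140, miR-142, miR-456, miR-25, miR-30 and miR-15. The most common sequence of each family, as listed by the authors, was compared with that of the leading family of its group. The last 4 bases were left out and a shift of up to 2 bases was allowed, a comparison chosen after the values were seen. This gave 69 copies with 1 to 3 substitutions, 20 families with none and 11 unlike the leading sequence. The kind of change is that of the listed sequence and need not be that of most reads. In amex-miR-pn1180 the listed sequence had 4 of 10 blastema and 8 of 366 control reads. In amex-miR-pn723 it had 6 of 24 and 32 of 1152. Families whose changes were all A-to-C numbered 17, of which 14 were at least 2-fold lower and 1 higher, with a median log2 ratio of -3.86. Families with a T-to-G change and no A-to-C change numbered 22, of which 21 were higher and 1 lower, with a median of 2.75. Of 12 families with C-to-A changes only, 7 were higher and 0 lower, with a median of 2.36. Of the other 18, 3 were higher and 10 lower, with a median of -2.17. The 20 families without an inner substitution had 15 higher and 1 lower, with a median of 2.23. Over all families with at least 200 reads 63.4% were higher and 29.7% lower, with a median of 2.10. Of the 39 leading families of numbers with at least 1000 mapped reads, 35 were higher and 1 lower, with a median of 2.51. The T-to-G and C-to-A medians thus lay near the general level, and the A-to-C median lay far below it. The 1 lower family, amex-miR-pn3713, has an A-to-C change within the last 4 bases, which were left out. All 14 lower A-to-C families had at least 200 reads in the control only, and most T-to-G families in the blastema only. The limit on total reads thus takes part in these counts and medians.

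Within miR-199 both kinds were present. Of 11 A-to-C families 10 were lower and 1 higher, with a median of -4.28, whereas of 14 T-to-G families 13 were higher and 1 lower, with a median of 2.21 that TMM brings close to 0. Lower families were not only A-to-C copies. Of 10 with other changes 7 were lower and 1 higher, with a median of -2.63, amex-miR-pn1251 with 16 blastema and 1124 control reads among them. Of 4 with C-to-A changes only, 0 were higher and 0 lower, with a median of 0.36. Among the printed copies, amex-miR-pn855 had 22 blastema and 1068 control reads, amex-miR-pn2646 had 6 and 644, amex-miR-pn2562 had 0 and 206, and amex-miR-pn723 had 24 and 1152. The T-to-G copy amex-miR-pn667 had 1092 blastema and 420 control reads, amex-miR-pn679 had 368 and 98, amex-miR-pn658 had 206 and 16, and amex-miR-pn97 had 200 and 12. Their leading sequence amex-miR-pn118, at 1.44, lay between both sets. In miR-140, amex-miR-pn2595 had 2 blastema and 202 control reads and amex-miR-pn775 had 214 and 28. miR-21 had no A-to-C family, and its 3 T-to-G families had log2 ratios from 5.39 to 6.91, beside 4.38 for its leading family. These were amex-miR-pn1408 with 348 blastema and 10 control reads, amex-miR-pn1410 with 212 and 4, and amex-miR-pn703 with 236 and 2. They passed the limit on total reads through the blastema alone, which favours high ratios. All single T-to-G sequences of miR-21 together stood at 4.61 (4.07 to 5.12), an interval that holds 4.38.

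**Figure D3:**
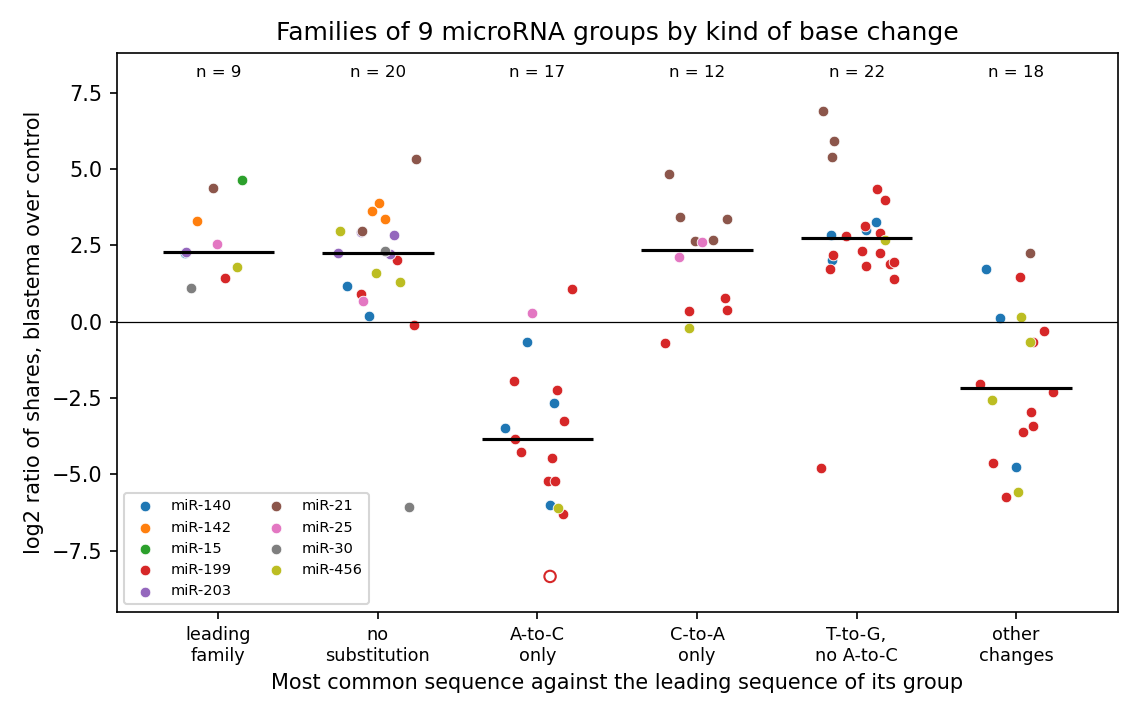
Log2 ratio of shares, blastema over control (vertical), of the families of 9 microRNA groups by the base change of their most common sequence from the leading sequence of the group (horizontal). Each point is a family coloured by microRNA, an open point has 0 blastema reads, and the black lines are medians. The medians are -3.86 for A-to-C copies and 2.75 for T-to-G copies. The 11 families unlike the leading sequence are left out. Families entered by their total reads, so that limit takes part in the split.

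The single sequences within the families of these groups were also counted by kind of change, as a finer description of the same reads. They come from families that passed the same limit on total reads, so they are not independent of it. Sequences with 1 A-to-C change from the leading sequence numbered 129 and summed to 2824 blastema and 2316 control reads, a log2 ratio of 0.63 (0.52 to 0.74), which turns negative under both scalings. Of these, 63 had a larger and 66 a smaller share in the blastema. With 2 such changes there were 83 sequences with 100 blastema and 2068 control reads, a log2 ratio of -4.02, and with 3 there were 60 with 66 and 3020, a log2 ratio of -5.16. None of the 83 and none of the 60 had a larger share in the blastema. T-to-G changes stayed near one level, at 2.73, 2.35 and 2.54 for 1, 2 and 3 changes, over 125, 59 and 8 sequences. C-to-A changes gave 1.64, 1.86 and 2.66, each of the first pair negative with TMM. T-to-A changes gave 1.78, -0.49 and -3.49 over 52, 11 and 10 sequences for 1, 2 and 3 changes, the first also negative with TMM. Other kinds also had lower values at 2 changes than at 1, over few sequences. C-to-G gave 0.31 and -3.87 over 35 and 4 sequences, and C-to-T gave 1.49 and -2.32 over 42 and 3. T-to-C gave 2.09 and -1.02 over 77 and 3, and the value for 1 change was negative with TMM in all 3 kinds. By microRNA, over 1 to 3 changes, the A-to-C sequences of miR-199 stood at -2.03 and those of miR-140 at -1.65, while those of miR-21 stood at 3.46 and those of miR-142 at 2.10. The T-to-G sequences stood at 2.36 for miR-199, 2.54 for miR-140, 4.61 for miR-21 and 2.33 for miR-142. In all 8 groups that had both kinds the A-to-C value was below the T-to-G value, and the intervals were apart in 7 of them, miR-142 being the exception.

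**Figure D4:**
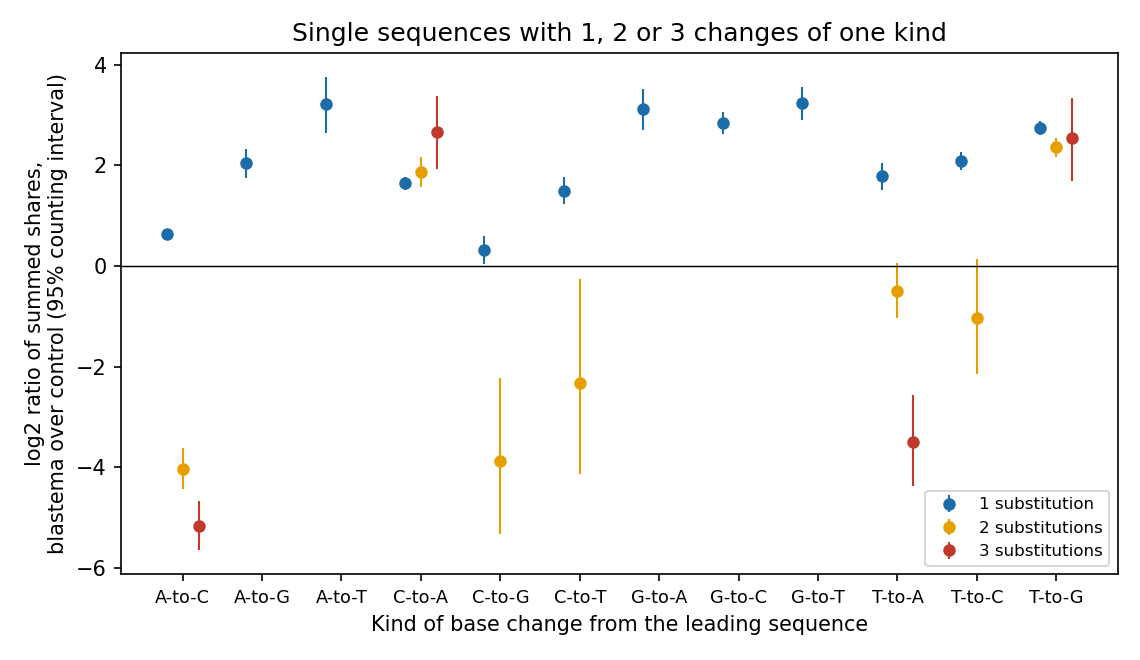
Log2 ratio of summed shares, blastema over control (vertical), of single sequences that differ from the leading sequence of their group by 1, 2 or 3 base changes of the same kind (horizontal, colours by number of changes). Bars are 95% intervals from counts divided by 2, and kinds with fewer than 3 sequences are left out. The A-to-C points stand at 0.63, -4.02 and -5.16, and the T-to-G points at 2.73, 2.35 and 2.54.

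A-to-C variants were also counted over all members without regard to group, as sequences with at least 3 A-to-C differences from an unmapped sequence that had at least 1000 reads and at least 10 times their reads in the same library. They made up 150 of the blastema member reads, 0.0354% (0.0282 to 0.0443), against 17002 of the control member reads, 10.8%. Many came from amex-miR-pn5085, amex-miR-pn5116, amex-miR-pn5172 and amex-miR-pn5159, close to miR-1 families, with 3134, 2566, 2146 and 1972 control reads. Families with at least 200 reads that resemble let-7 or muscle microRNAs had 418276 control and 117466 blastema reads. The rule needs a well-read sequence in the same library, so the share also depends on its abundance there. How far was not tested. In 16 families at least 50% of the reads were such variants. A family of such variants could pass the limit on total reads through the control alone. Whether the change arose in the tissue, the library preparation or the sequencing run was not tested, and with 1 library per condition the library and the condition cannot be told apart.

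The 6 lower members of neither kind were amex-miR-pn149 described above, amex-miR-pn747 (miR-4962) with 396 blastema and 1368 control reads, amex-miR-pn5651 (miR-2479) with 66 and 378, amex-miR-pn817 and amex-miR-pn818 (both miR-B21RC) with 0 and 2 blastema reads against 246 and 294 control reads, and amex-miR-pn3713 (miR-30e) with 4 and 388. All reads of both miR-B21RC families were A-to-C variants as just defined. The miR-30e family is shorter than amex-miR-pn2873 and differs from it only in its final bases, which the comparison above left out. These are an A-to-C and a C-to-T change, marked by capitals here.
amex-miR-pn3713 (miR-30e): ctttcagtcggatgcttacCgT

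Abundant members also carried names of microRNAs that few reads mapped to. Of the 112 numbers, 73 had fewer than 1000 mapped reads and 18 had none, and they held 113 members. The 4 miR-4429 families formed the second largest group, with 64266 blastema and 10478 control reads, a log2 ratio of 2.96 (2.92 to 3.00) that was 0.82 with TMM, although only 16 blastema and 3 control reads mapped to that name. amex-miR-pn1005 had 51660 blastema reads, 0.519%, against 7232 control reads, 0.0573%, a log2 ratio of 3.18 (3.13 to 3.23), and 91.6% of its reads were 1 sequence. amex-miR-pn486, the same sequence with 2 more bases at its 5′ end, had 11710 blastema and 3054 control reads, a log2 ratio of 2.28 (2.20 to 2.36). The intervals of these start variants did not overlap. The 3 miR-750 families had 21094 blastema and 4600 control reads, a log2 ratio of 2.54 (2.47 to 2.60) that was 0.40 with TMM, and the largest, amex-miR-pn35, had 17170 and 3280, a log2 ratio of 2.73. Whether the miR-750 families are RNA of the axolotl or of bacteria, such as ribosomal RNA, was not tested, so the name stands only for the listed resemblance. amex-miR-pn2797 (miR-7254) had 3746 blastema and 46 control reads, a log2 ratio of 6.67 (6.07 to 7.25), the second largest among members with at least 1000 reads.

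The most common sequence of 8 members, each with a different first name, ended in CCA. They summed to 30388 blastema and 8940 control reads, a log2 ratio of 2.11 that is just below 0 with TMM, and ran from 1.28 to 5.06. The largest, amex-miR-pn906 (miR-7977), had 18634 blastema and 6142 control reads, a log2 ratio of 1.94 (1.88 to 2.00) that was -0.19 with TMM. The reads mapped to miR-7977, 4480 in the blastema and 348 in the control, had a log2 ratio of 4.03. amex-miR-pn484 (miR-2898) had 4018 blastema and 620 control reads, and amex-miR-pn2925 (miR-9277) had 3222 and 200. Whether these families come from transfer RNAs was not tested, since no genome of this build was used.

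All 10 miR-3168 families were at least 2-fold higher, beside 63.4% of all families. They had 19338 blastema and 722 control reads, a log2 ratio of 5.08 (4.93 to 5.23). Of the 10, 9 shared at least 15 bases with the most common sequence of amex-miR-pn536, a family outside the members. Whether these sequences come from an adapter of the library preparation and not from the tissue was not tested. These 9 had 19054 blastema and 716 control reads and held 3 of the 5 largest ratios among members with at least 1000 reads. amex-miR-pn2185 had 1986 blastema and 16 control reads, a log2 ratio of 7.25. amex-miR-pn1264 had 5496 and 116, a log2 ratio of 5.90, and amex-miR-pn2694 had 1944 and 44, a log2 ratio of 5.79. Without these 9 families the members were 4.07% of the blastema reads and 1.24% of the control reads.

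The remaining large group, miR-456, had 12 families with 9316 blastema and 5138 control reads and a log2 ratio of 1.20 (1.13 to 1.27), against 1.82 in its mapped reads. The group stood at -0.94 with TMM, -0.19 without the muscle microRNAs and -0.23 with only the families whose names all carried that number. Its families were divided as in miR-199, with 6 higher and 3 lower. amex-miR-pn1957 of the miR-21 group, with 208 blastema and 2 control reads, was the only member found whose sequence joins the end of its leading sequence to its start.
amex-miR-pn1957 (miR-21): atcagactgatgttgatagctt

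The members were built of 4323 sequences, with a median of 11 per family and a range from 1 to 149. The median share of a family's reads held by its most read sequence was 41.7%. The median share with the same bases 2 to 8 as the listed sequence was 86.5%. The sequence listed by the authors was the most read one in 212 of the 259. amex-miR-pn118 was made of 149 sequences, and 96.0% of its reads had the printed seed. In amex-miR-pn906, 41.1% had the seed of its listed sequence, which was not its most read one.

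Length and last base of the members of well-mapped microRNAs differed from those of the remaining families in both libraries. Both sets hold only sequences that did not map, and reads with longer or changed ends may fail to map. The mapping step thus takes part in these lengths and last bases, and how far was not tested. The members counted include amex-miR-pn906 (miR-7977), whose listed sequence ends in CCA, with 18634 blastema and 6142 control reads. In the groups with at least 1000 mapped reads, sequences of 23 bases held 53.9% of the blastema reads and 52.6% of the control reads, against 15.1% and 8.20% in the families with as many reads that are not members. Of their reads, 72.6% in the blastema and 64.3% in the control ended in A, against 25.1% and 22.0% in the other families. The leading sequences of miR-199, miR-21, miR-203, miR-140, miR-142 and miR-456 printed above all end in A.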

How the data were processed

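The authors trimmed reads with ShortRead, mapped them to mirBase 21 with Bowtie 1.1.2 allowing 2 mismatches, and grouped unmapped sequences seen more than 7 times into families at a Levenshtein distance of 4. Resemblances were found with NCBI Blast. The deposited counts are raw reads per mirBase entry, per unmapped sequence and per family. The deposited table also holds normalized and log2 values per library (4 columns) and log2 fold changes, none of which were used.

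Shares, log2 ratios with 0.5 read added, Poisson intervals of the ratio and Wilson intervals at 95% were computed. Since all unmapped counts were even, intervals of unmapped counts used counts divided by 2. PCR copies are not independent molecules, so intervals and floors of 3 reads cover counting error only. With 1 library per condition no model was fitted. edgeR 4.0.16 in R 4.3.3 served only for TMM factors. The other steps used edlib 1.3.9.post1, Matplotlib 3.10.9, SciPy 1.17.1, NumPy 2.4.6 and pandas 2.3.3 in Python 3.11.15, and the calculations were tested on simulated data.

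Named were the 10 microRNA numbers with most reads, the 10 families with most reads in each library, the 5 largest and 5 smallest ratios among members with at least 1000 reads, 3 families nearest to 200 reads on each side and the top family of each role list. Families named beyond this rule were picked with their values in view. The members and lists were chosen with earlier results of these data known. The comparisons of base changes, edits to let-7 and muscle families, joined sequences and shared bases were chosen after seeing the data. Alternatives were other scalings, 5 reads added, other read minimums, a 4-fold limit, the most read sequence alone, families with names of 1 number only, and leaving out A-to-C variants.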

Additional observations from a re-analysis of the deposited data

How the results depend on the processing

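No paired analysis was possible because each condition is 1 library, and for the same reason no library could be left out. Main values were 177 members higher and 55 lower, a median log2 ratio of 2.20 and a summed log2 ratio of 1.77. With TMM they were 73, 86, 0.068 and -0.36. Without the muscle microRNAs 113 were higher, with a median of 0.81 and a sum of 0.38. With the depths stated for the libraries the median was 1.58 and the sum 1.15, and with mapped reads as the total the sum was 1.96. A minimum of 10 reads gave 607 higher and 151 lower, 100 reads gave 266 and 91, and 1000 reads gave 52 and 17. Families with names of 1 number only gave 36 lower. The sum was 2.03 with the most read sequence alone and 1.94 without A-to-C variants, which emptied 7 families. As alternatives chosen after seeing the data, leaving out the families within 5 edits of let-7 or muscle families gave 28 lower and a sum of 2.16, and leaving out those sharing bases with amex-miR-pn536 gave a sum of 1.71. A-to-C variants held 0.112% of blastema and 11.6% of control member reads at 2 or more positions, and 1.10% and 14.0% at 1 or more. The other counts of these 4 results stayed within 1.5 times and the other sums within their interval, 4-fold (137 higher, 45 lower) and 5 reads added included. The median has no interval of its own. Its other values stayed within a band around 2.20 as wide as the median interval of single families.

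Of 47 single log2 ratios past 2-fold, 11 turned direction with TMM, another 14 kept it but were within 2-fold, and 22 stayed past 2-fold. Without the muscle microRNAs these counts were 5, 12 and 30. Within 2-fold with TMM were miR-4429 (0.82), miR-203 (0.19), miR-750 (0.40), the Hox (0.57), epithelial (0.25) and proliferation (0.14) lists, amex-miR-pn165 (0.12), amex-miR-pn1714 (0.58), amex-miR-pn3115 (0.38), amex-miR-pn319 (0.40), amex-miR-pn35 (0.59), amex-miR-pn37 (0.15), amex-miR-pn486 (0.14) and amex-miR-pn76 (0.51). Turned with TMM, miR-199 was -1.11, miR-140 -0.48, miR-7977 and its family amex-miR-pn906 -0.19, miR-456 -0.94, the mesenchyme list -0.95, the neural list -0.18, the broadly expressed list -0.40, amex-miR-pn118 -0.70, amex-miR-pn153 -0.95 and amex-miR-pn2873 -1.05. Without the muscle microRNAs, miR-199 was -0.37, miR-456 -0.19, the mesenchyme list -0.21, amex-miR-pn153 -0.21 and amex-miR-pn2873 -0.31. With names of 1 number only, miR-456 was -0.23. The difference between unmapped and mapped ratios, -0.31 in the median, does not depend on the scaling.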
